A study of Bos taurus with 12 samples.

Results

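Genes that package chromosomes for cell division were followed in bovine muscle cells before and after differentiation. The 10 genes are the proliferation antigen MKI67, the DNA topoisomerase TOP2A, 7 of the condensin subunits (SMC2, SMC4, NCAPD2, NCAPG, NCAPH, NCAPD3 and NCAPG2) and the chromatin protein HMGB2. They were taken by gene symbol from the authors' table of 18436 genes, and their m6A peaks by the gene name that the authors' peak lists give. They were chosen by their lower FPKM after differentiation, which was known from earlier results, so that difference is described here without a test. All 10 passed the filter of a mean of at least 0.5 FPKM, which left 12302 genes.

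The cells were primary myoblasts of Bos taurus (Qinchuan breed, newborn), grown from the longissimus dorsi muscle. The GM group was proliferating myoblasts in medium with 20% fetal bovine serum, taken at 80% confluence. The DM group was myotubes after 4 days in medium with 2% horse serum, at 100% confluence. Serum and confluence thus differed together with the stage. From 3 cultures a group, fragmented poly(A) RNA was sequenced both as it was (input) and after immunoprecipitation (IP) with an m6A antibody, 12 libraries in all. Both groups came from the same kind of primary isolate, which the study's methods describe as taken from a single animal, so p-values measure the spread between cultures and not between animals.

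Condensins are ring-shaped ATPase complexes that fold chromatin into compact mitotic chromosomes. SMC2 and SMC4 form the ATPase core of both condensins. NCAPH closes the ring of condensin I, with NCAPD2 and NCAPG bound to it, and NCAPH2, NCAPD3 and NCAPG2 take these places in condensin II. TOP2A passes DNA strands through each other so that sister chromatids can come apart, Ki-67 (MKI67) coats mitotic chromosomes and keeps them from sticking together, and HMGB2 bends DNA. Myoblasts leave the cell cycle before they fuse, so nuclei of myotubes no longer divide.

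FPKM, fragments per kilobase of exon, scaled to the mapped fragments of the library, is given by the authors for the 6 input libraries. The table holds no read counts. FPKM summed over all genes to 415740.2 to 434458.3 in the GM libraries and to 386436.5 to 390826.9 in the DM libraries. Summed markers of myotubes (10 genes) lay at 868 to 991 FPKM in GM and 1611 to 1693 in DM, with 7 of the 10 called higher (a fold over 1.5 and p under 0.05 in limma) and ACTA1 called lower. Those of myoblasts (7 genes) summed to 627 to 653 FPKM in GM and 593 to 604 in DM, a sum carried by DES at 446 to 465 and 484 to 492 FPKM, while PAX7, MYF5, MYOD1 and ITGA7 were called lower. Fibroblast markers (7 genes) summed to 10570 to 10680 FPKM in GM and 11780 to 12320 in DM, with COL1A1 alone at a mean of up to 7420, and no marker of that list was at 0. POSTN of that list was called lower (means of 273 FPKM in GM and 132 in DM), and none was called higher. COL3A1, DCN and PDGFRA were higher in DM but under the fold limit. Their log2 differences were 0.39, 0.33 and 0.26 (limma, Benjamini-Hochberg adjusted p = 0.0013, 0.0032 and 0.0053). For COL1A1, LUM and THY1 the adjusted p in limma was over 0.05. Adipocyte markers (6 genes) summed to 2.35 to 2.63 FPKM in GM and 2.41 to 3.16 in DM, with PPARG called lower. Means of CIDEC (0.127 FPKM in GM, 0.796 in DM) and FABP4 (0.106 and 0.579) were higher in DM. Those of ADIPOQ (0.153 and 0.0109) and LEP (0.0261 and 0.0126) were lower. CIDEC, FABP4, ADIPOQ and LEP lay under the FPKM filter and so could not be called. PLIN1 (0.870 and 0.985) was tested and not called. The 4 matched endothelial markers summed to 0.331 to 0.497 and 0.415 to 0.653, and the 2 matched leukocyte markers to 0.869 to 1.56 and 0.881 to 1.94. The part of these marker levels in the results was not tested. Fewer dividing cells and less RNA per cell cannot be told apart in such bulk libraries.

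MKI67 (ENSBTAG00000002444, chromosome 26, 47507654 to 47537887, minus strand, ARS-UCD1.2) was among the most changed genes of the table. Its GM libraries held 18.7, 18.3 and 16.5 FPKM and its DM libraries 0.772, 1.2 and 0.712 FPKM. The groups did not overlap, and DM kept 5.02% of the GM level. The means were 17.8 ± 1.15 FPKM in GM and 0.895 ± 0.266 in DM (SD, n = 3), 19.9-fold apart and -3.32 on the scale of log2(FPKM + 1), which understates the difference of genes with low values. Ordered by that difference, MKI67 stood at place 4 of the 12302 genes, counted from the largest decrease.

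TOP2A (ENSBTAG00000019262, chromosome 19, 40627306 to 40653433, minus strand) had nearly the same profile. It was at 20.0, 21.2 and 17.2 FPKM in GM and at 0.920, 1.44 and 1.05 in DM, with means of 19.5 ± 2.04 and 1.14 ± 0.270 FPKM (SD, n = 3). Its mean was 17.1-fold lower in DM and its log2 difference was -3.26, place 5 of 12302. GM replicate 3 was lowest and DM replicate 2 highest in both genes. TOP2B, the topoisomerase II that cells also keep outside division, was at 39.2, 42.1 and 35.0 FPKM in GM and 31.2, 30.1 and 32.1 in DM. TOP2B thus exceeded TOP2A by 1.96 to 2.03 times in the GM libraries and by 20.9 to 33.9 times in the DM libraries. The log2 difference of TOP2B was -0.30 (SE 0.07, limma, Benjamini-Hochberg adjusted p = 0.0093), under the 1.5-fold limit used for calls.

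The ATPase core of condensin stayed at a higher level in DM than these genes. SMC2 (ENSBTAG00000008772, chromosome 8, 93707084 to 93754793, plus strand) was at 8.98, 9.34 and 8.02 FPKM in GM and at 2.84, 3.0 and 3.19 in DM. SMC4 (ENSBTAG00000005862, chromosome 1, 107045175 to 107078624, minus strand) was at 19.5, 19.8 and 14.9 FPKM in GM and at 8.01, 6.81 and 7.54 in DM. Neither gene's groups overlapped, and DM held 34.3% of the GM level of SMC2 and 41.3% of that of SMC4. The proteins pair with each other, and SMC4 had 1.86 to 2.17 times the FPKM of SMC2 in GM and 2.27 to 2.82 times in DM. SMC3 of cohesin, which was not called (log2 difference -0.22, limma, Benjamini-Hochberg adjusted p = 0.049), stood at 1.71 to 1.91 times SMC2 in GM and 4.19 to 4.91 times in DM.

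The subunits particular to condensin I differed among themselves. NCAPH (ENSBTAG00000012925, chromosome 11, 2433855 to 2467290, plus strand), the kleisin that bridges the SMC heads, was at 5.14, 4.95 and 5.26 FPKM in GM and at 0.306, 0.782 and 0.671 in DM. DM kept 11.5% of its GM level, and the DM libraries spread by a coefficient of variation of 42.5%, against 3.05% in GM. NCAPG (ENSBTAG00000021582, chromosome 6, 37277323 to 37378124, plus strand), a HEAT-repeat subunit, was at 11.0, 11.2 and 9.50 FPKM in GM and at 2.83, 2.75 and 2.50 in DM, so that 25.5% remained. NCAPD2 (ENSBTAG00000014730, chromosome 5, 103877217 to 103901222, minus strand), the other HEAT-repeat subunit, was at 6.99, 7.13 and 7.18 FPKM in GM and at 3.25, 3.18 and 2.41 in DM, and 41.5% remained. None of the 3 genes had overlapping groups. Their means were 8.73-fold, 3.92-fold and 2.41-fold lower in DM, in the order NCAPH, NCAPG, NCAPD2.

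Both condensin II subunits among the 10 genes kept separate groups. NCAPG2 (ENSBTAG00000016131, chromosome 4, 119334801 to 119408828, minus strand) was at 5.67, 5.76 and 5.14 FPKM in GM and at 1.54, 1.88 and 1.56 in DM, 3.33-fold lower. NCAPD3 (ENSBTAG00000002260, chromosome 15, 83443176 to 83503594, minus strand) was at 3.45, 3.36 and 3.14 FPKM in GM and at 1.93, 1.79 and 1.79 in DM. Its mean was 1.81-fold lower in DM, the smallest difference of the 10 genes, and 55.3% of its GM level remained. An unnamed gene (ENSBTAG00000046088) on the same strand inside NCAPD3 was at 1.78 FPKM in GM and 1.66 in DM, and how reads were divided between them is not given in the sources used here.

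NCAPH2, the kleisin of condensin II, was not chosen with the others and is the condensin gene that did not pass the limits for a call. It was at 8.33, 8.14 and 8.89 FPKM in GM and at 7.46, 6.58 and 7.56 in DM, and no DM library reached a GM library. Its log2 difference was -0.21 (SE 0.07, limma, Benjamini-Hochberg adjusted p = 0.042), against a median of -0.05 over all tested genes. In GM the kleisins of the complexes were close in level, with NCAPH2 at 1.62, 1.64 and 1.69 times NCAPH. In DM the ratio was 24.4, 8.41 and 11.3, highest in DM replicate 1, where NCAPH was lowest. The other subunit pairs moved far less, but in these, unlike NCAPH2 and NCAPH, both genes were chosen by their lower FPKM in DM. NCAPD2 was at 2.03 to 2.29 times NCAPD3 in GM and 1.35 to 1.78 times in DM. NCAPG was at 1.85 to 1.95 times NCAPG2 in GM and 1.46 to 1.84 times in DM.

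**Figure D1:**
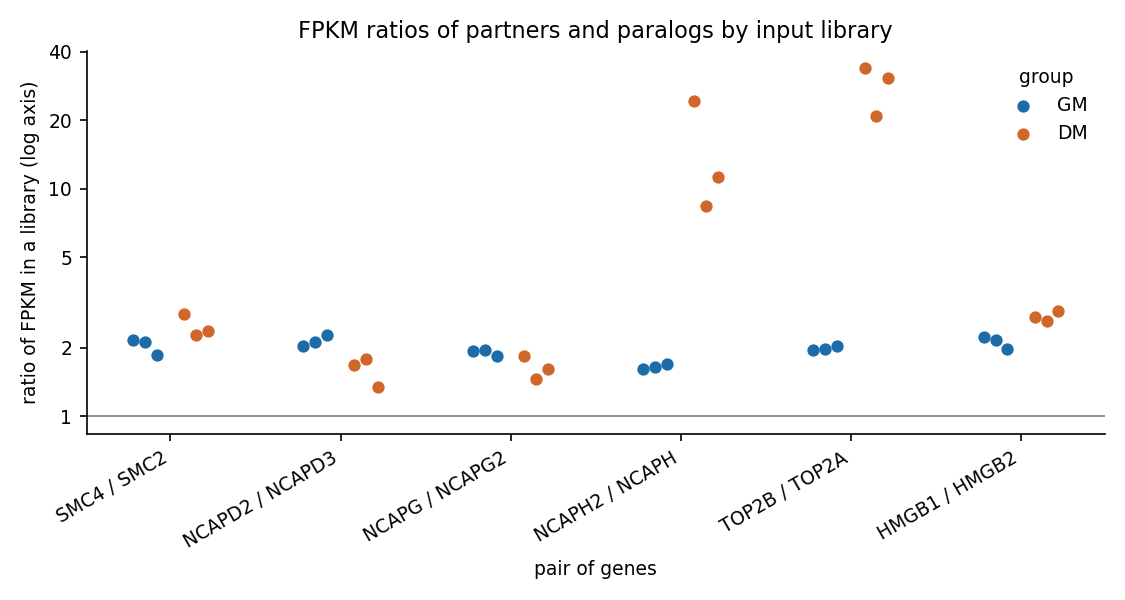
Ratio of the FPKM of 6 gene pairs in each input library (log axis), with 3 GM points and 3 DM points a pair and a line at a ratio of 1. NCAPH2 over NCAPH went from 1.62 to 1.69 in GM to 8.41 to 24.4 in DM and TOP2B over TOP2A from 1.96 to 2.03 to 20.9 to 33.9, while the other 4 ratios stayed between 1.35 and 2.91 in every library.

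HMGB2 (ENSBTAG00000015101, chromosome 8, 5735151 to 5737485, minus strand) was the most abundant of the 10 genes in both groups. It was at 61.3, 56.2 and 58.5 FPKM in GM and at 23.4, 27.4 and 24.3 in DM, 2.34-fold lower in DM without overlap. Its paralog HMGB1 was at 136, 121 and 115 FPKM in GM and 64.0, 71.5 and 70.8 in DM, which gives HMGB1 1.97 to 2.22 times the level of HMGB2 in GM and 2.61 to 2.91 times in DM. The sequences of HMG genes and their processed copies are alike, so the share of reads each received is uncertain.

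Among the 10 genes, the order of levels in GM put HMGB2 first at 58.7 FPKM, then TOP2A, SMC4 and MKI67, each overlapping the next. NCAPG (10.6 FPKM), SMC2 (8.78) and NCAPD2 (7.10) followed without overlap, then NCAPG2 and NCAPH, which overlapped, and NCAPD3 at 3.32 FPKM. In DM the order was HMGB2, SMC4, then SMC2, NCAPD2 and NCAPG with overlap, then NCAPD3 and NCAPG2 with overlap, then TOP2A, MKI67 and NCAPH with overlap. MKI67 thus exceeded 72.1% of the tested genes in GM and 7.30% in DM, and HMGB2 91.1% and 80.1%. GM replicate 3 was the lowest of its group for 7 of the 10 genes, as for 44.6% of all tested genes, and DM replicate 2 was the highest for 5 of 10, as for 32.5% of tested genes.

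**Figure D2:**
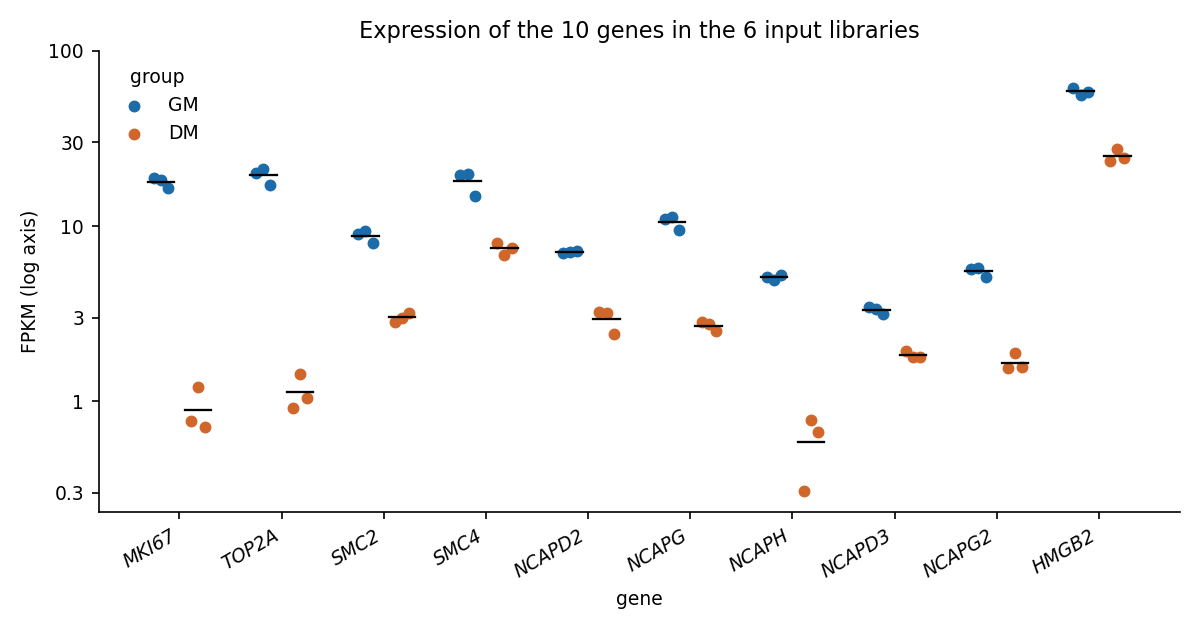
FPKM (log axis) of the 10 genes in the 3 GM and the 3 DM input libraries. Each point is a library and each bar the mean of its group, and in every gene all 3 DM points lie below all 3 GM points, most widely in MKI67 (17.8 against 0.895 FPKM) and least in NCAPD3 (3.32 against 1.84).

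A gene was called at a two-sided unadjusted p under 0.05 and a fold over 1.5 in limma. The study set the same limits in edgeR. The fold here was that of FPKM + 1, a stricter limit for genes with low values. By that rule 6.97% of the tested genes were called lower in DM and 4.9% higher. In 33.0% of tested genes all 3 GM libraries lay above all 3 DM libraries. All 10 genes met both descriptions, and nothing is read from that count because the same contrast chose them. Their median log2 difference was -1.29, beside -0.05 over all tested genes. NCAPD3 passed the fold limit narrowly, at a log2 difference of -0.6062. It lay under the limit with size factors (-0.5601) and without GM replicate 1 (-0.5845).

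Genes of the surrounding machinery were taken from lists of 94 genes, of which 9 were not matched and 82 were tested, as 83 entries because NFYB has a pair of gene identifiers. Of the 83 entries, 31 were called lower in DM and none higher, and their median log2 difference was -0.28. Without the limit on the fold, limma gave 54 lower and 6 higher at an unadjusted p under 0.05, and 51 lower and 4 higher at a Benjamini-Hochberg adjusted p under 0.05. Of all tested genes, 31.4% were lower and 19.3% higher by the former limit, and 26.7% and 16.1% by the latter. These lists were written with earlier results of the data known.

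Partners of condensin and Ki-67 gave 3 lower genes of 11 tested, with a median of -0.28. CDCA2, which brings protein phosphatase 1 to chromosomes, fell from 8.27 ± 1.11 to 0.831 ± 0.0491 FPKM (SD, n = 3; log2 difference -2.33, limma, Benjamini-Hochberg adjusted p = 9.6e-07). KIF15, a spindle kinesin that binds Ki-67, fell from 2.74 ± 0.263 to 0.288 ± 0.0924 FPKM (log2 difference -1.54, limma, Benjamini-Hochberg adjusted p = 5.7e-06). FBL, the nucleolar RNA methyltransferase fibrillarin, fell from 65.5 ± 5.74 to 43.0 ± 3.90 FPKM, by 0.60 on the log2 scale, close to the fold limit. FBL was no longer called with size factors (log2 difference -0.53) or TPM (-0.48), nor with GM replicate 3 or DM replicate 1 or 2 left out.

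The chromosomal passenger complex, which corrects chromosome attachment, and the mitotic kinases gave 11 lower genes of 12, with a median of -2.00. The largest decreases were those of CCNB1, the mitotic cyclin B1, from 25.9 ± 0.931 to 2.17 ± 0.384 FPKM, of BIRC5 (survivin), from 27.9 ± 0.421 to 2.56 ± 0.345, and of CCNB2, from 9.72 ± 0.578 to 0.766 ± 0.127. Their log2 differences were -3.09, -3.03 and -2.60 (limma, Benjamini-Hochberg adjusted p = 2.6e-07, 2.1e-07 and 2.6e-07). The gene of this list that was not called was HASPIN, the histone H3 kinase, at 2.65 to 3.28 FPKM in GM and 1.84 to 2.34 in DM.

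Cohesin, which holds sister chromatids together with SMC proteins of the same family, gave 6 lower genes of 15, with a median of -0.19. The 6 were ESCO2 (log2 difference -1.41), CDCA5 (-0.83), SGO1 (-1.28), SGO2 (-0.72), ESPL1 (-1.72) and PTTG1 (-2.58), with Benjamini-Hochberg adjusted p of 1.3e-06 to 0.0018 in limma. As background, ESCO2 and CDCA5 establish or stabilise cohesion, the shugoshins SGO1 and SGO2 protect it, and ESPL1 (separase) with its inhibitor PTTG1 (securin) ends it. The ring subunits SMC3 and RAD21 were not called, with RAD21 at 49.1 to 58.5 FPKM in GM and 44.8 to 48.8 in DM. CDCA5 dropped under the FPKM filter, and so out of the count, with GM replicate 3 left out or a filter of at least 1 FPKM. STAG1, a cohesin subunit, was at 6.50 to 7.00 FPKM in GM and 9.0 to 10.6 in DM, a log2 difference of 0.49 that lay under the fold limit and passed it, at 0.64, with TPM. Of the SMC5/6 complex, a further relative of condensin, 0 of 5 tested genes were called in limma, 2 were lower at an unadjusted p under 0.05 without the limit on the fold, and the median was -0.15.

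Other topoisomerases gave 2 lower genes of 6. TOP1, which relaxes DNA, fell from 48.7 ± 4.94 to 31.9 ± 0.597 FPKM (log2 difference -0.59, limma, Benjamini-Hochberg adjusted p = 0.00042), and TDP1, which removes trapped topoisomerase I, from 3.13 ± 0.307 to 1.70 ± 0.255 (log2 difference -0.62, limma, Benjamini-Hochberg adjusted p = 0.0011). Both lay near the fold limit, and TOP1 was not called with size factors (-0.53), with TPM (-0.47) or without GM replicate 1 or 2 or DM replicate 2. TDP1 was not called with size factors (-0.57) or without GM replicate 1 or DM replicate 2.

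Of the HMG proteins and the SET complex, in which HMGB2 has been found, 5 of 10 were lower, with a median of -0.57. HMGN1, a nucleosome-binding protein, fell from 148 ± 12.2 to 69.2 ± 3.05 FPKM (log2 difference -1.08) and HMGA2, an embryonic HMG protein, from 2.80 ± 0.621 to 0.538 ± 0.161 FPKM (-1.30). The log2 differences of HMGB1 and HMGA1 were -0.84 and -0.74. ANP32A, of the SET complex, had a log2 difference of -0.60 and lost its call with size factors, with TPM and without GM replicate 1 or DM replicate 3. For these 5 the Benjamini-Hochberg adjusted p in limma was 9.7e-06 to 0.00029.

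Regulators of G2/M transcription gave 4 lower genes of 23 entries, with a median of -0.23. Without the limit on the fold, 13 entries were lower and 3 higher at a Benjamini-Hochberg adjusted p under 0.05 in limma. MYBL2 (B-MYB), which turns on late cell cycle genes with FOXM1, was at 19.3, 19.3 and 20.1 FPKM in GM and at 1.66, 2.70 and 1.94 in DM, a log2 difference of -2.74. FOXM1 was at 1.94 to 2.02 FPKM in GM and 0.118 to 0.179 in DM (-1.39), the repressor E2F8 at 2.28 to 2.50 and 0.117 to 0.240 (-1.54), and MYBL1 at 2.39 to 2.79 and 0.927 to 1.03 (-0.89). Their Benjamini-Hochberg adjusted p in limma was 9.7e-07 to 4.8e-05.

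**Figure D3:**
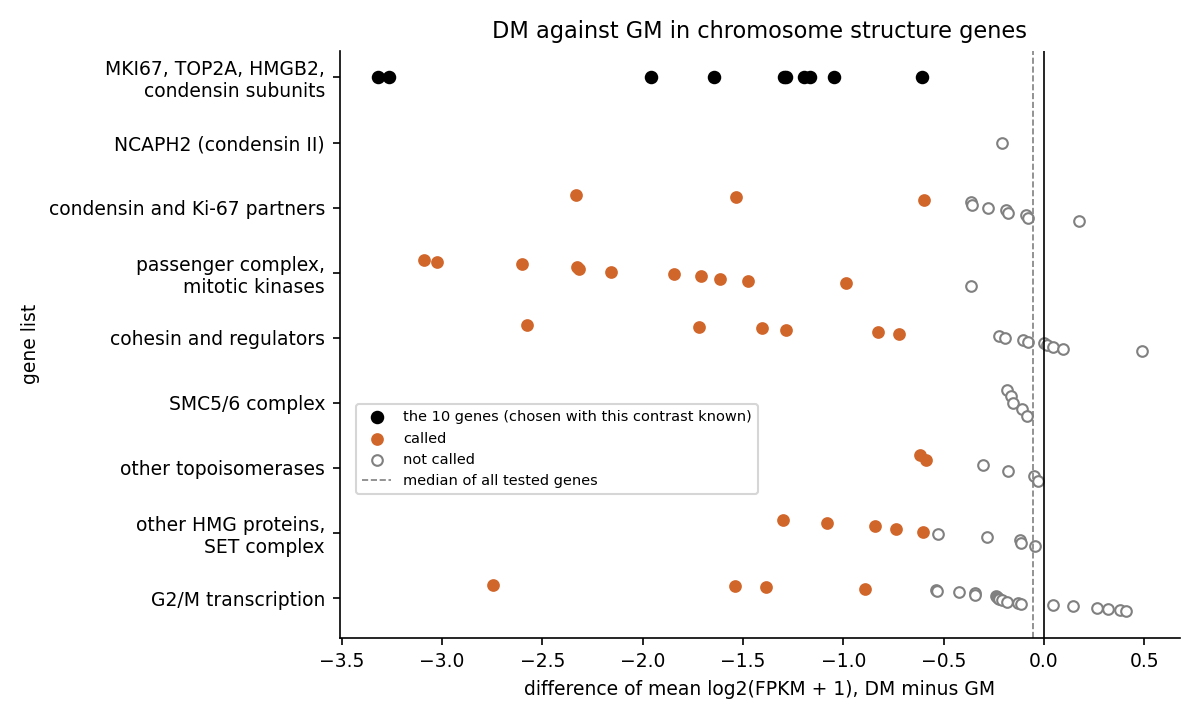
Difference of mean log2(FPKM + 1), DM minus GM, of the 10 genes (black, chosen with this contrast known) and of 83 tested entries in 8 lists, filled where called and open where not, each list a row with its points offset for legibility. The filled points number 31 and all lie left of 0, with 11 of 12 in the row of the passenger complex and mitotic kinases and none in the rows of NCAPH2 and SMC5/6. The dashed line is the median of all tested genes, -0.05.

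The genes with the expression profile nearest to that of MKI67 were found by the root mean square distance between centred log2(FPKM + 1) values over the 6 input libraries. Among the 10 genes TOP2A was nearest, at 0.0681. Of the other tested genes, the 5 nearest were the mitotic kinesin KIF20A (0.0766), the IGF-binding protein IGFBP5 (0.116), CCNB1 (0.131), the anaphase-promoting complex activator CDC20 (0.192) and the ubiquitin-conjugating enzyme UBE2C (0.194). IGFBP5 was at a mean of 99.4 FPKM in GM and 7.63 in DM. NCAPD3, with the smallest difference, had WDHD1, HNRNPD, MEST, TET1 and PPARG nearest, at distances of 0.0239 to 0.0293. The 6 libraries fall into the groups themselves, so a small distance mostly reflects a like difference between GM and DM.

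The m6A peaks come from 1 list a group, called by the authors on the pooled libraries. A peak has a fold enrichment, the ratio of IP to input in the peak, with no replicate error, so the lists are described without a test. The input libraries behind the denominators are those that gave the FPKM. Each of the 10 genes carried a peak in both lists, as did 69.3% of the tested genes. There were 13 peaks in GM and 24 in DM, of 19739 and 20790 in all, covering 12811 and 10689 exonic bases. Without MKI67 the other 9 genes had 10 peaks over 3437 bases in GM and 13 over 5021 in DM, and 7 of the 10 genes had more bases in DM. Fewer bases in DM were covered in the other 3, and in 30.4% of 523 compared genes called lower in DM. That share was 19.3% of 7470 genes not called and 17.9% of 441 called higher. A false discovery rate under 0.05 held for all 13 in GM and for 22 of 24 in DM, beside 90.3% and 88.9% of all peaks. The 3′UTR class held 7 peaks in each list and the 5′UTR class 1, and the exon class held 5 in GM and 16 in DM, 9 of those 16 in MKI67. The longest GM peak of MKI67 is 1 entry of the 3′UTR class, and most of the 9 DM peaks that it overlaps are in the exon class. The exon counts thus depend on how a stretch was split into peaks. Over all peaks the 3′UTR class held 42.7% in GM and 45.3% in DM, and the exon class 41.3% and 36.5%.

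In the last part of MKI67 the lists differed in shape. GM had 3 peaks over 9374 exonic bases, and DM had 11 over 5668 bases, 96.8% of which lay within the GM peaks. The longest GM peak (chr26:47508792-47520911) covered 7845 exonic bases with a fold enrichment of 4.00 and ended 1138 bases before the 3′ end. It overlapped 9 DM peaks with 5038 bases inside it, 64.2% of its length, at fold enrichments of 1.71 to 4.47. Of the 19739 GM peaks, 16830 overlapped a DM peak at all, 128 overlapped at least 3, 5 at least 5, and only this peak at least 8. The log10 of the false discovery rate of the 3 GM peaks was -81.5 to -250, and that of the 11 DM peaks -0.88 to -9.27. DM input held 5.02% of the GM level of MKI67, and the part of this lower coverage in the smaller and more numerous DM peaks was not tested.

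The peak at the 3′ end was the most enriched of the MKI67 peaks in both lists. It covered 929 bases (chr26:47507654-47508582) with a fold enrichment of 10.2 in GM and 300 bases (chr26:47507654-47507953) with 11.7 in DM. A separate peak, 9770 to 10369 bases after the gene start in GM, was at 3.02 there over 600 bases and at 2.19 in DM over 150. Among genes changed in both m6A and mRNA, the paper lists MKI67 with the largest decreases in m6A, at an exon peak that spans this stretch. Its value comes from a differential peak analysis, not from the ratio of these listed fold enrichments.

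**Figure D4:**
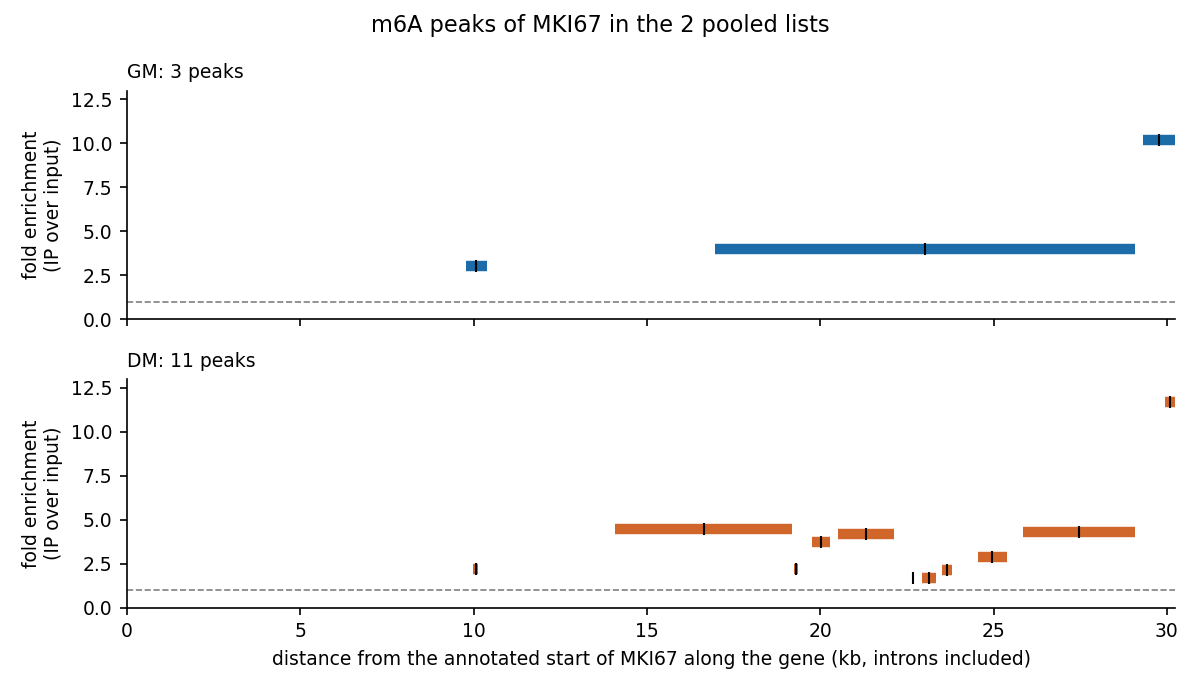
Fold enrichment of IP over input (vertical axis) of each MKI67 peak against its distance in kb from the annotated start of the gene, introns included, in the pooled GM list above and the pooled DM list below. Bars run from the first to the last base of a peak, small black marks give their middles and the dashed line is a fold enrichment of 1. A GM bar at 4.00 spans the place of 9 shorter DM bars at 1.71 to 4.47, and the bar at the 3′ end stands at 10.2 in GM and 11.7 in DM.

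HMGB2 had the pair of peaks that differed most in fold enrichment. Its GM peak (chr8:5735475-5736554) covered 501 exonic bases at 3.03 and its DM peak (chr8:5735151-5736554) 825 bases at 12.1, a ratio of 3.99. Where 1 GM peak overlapped 1 DM peak and neither overlapped another, the 2 were taken as a pair, and of 10239 such pairs 99.2% had a lower ratio. The DM peak held the whole GM peak and ran 324 bases further to the annotated 3′ end, so the values are not over the same stretch. The GM peak has its false discovery rate listed as 0, a log10 of minus infinity, and the DM peak has a log10 of -181.

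In the other 9 genes the pairs lay closer together. Over the 12 pairs of the 10 genes the median log2 ratio was 0.33 and 9 of 12 were higher in DM, beside 0.07 and 56.5% over all 10239 pairs. Past 1.5-fold either way were 25.0% of all pairs and 2 of these 12, HMGB2 and a weak exon peak of NCAPG2 (1.38 in GM, 2.13 in DM). Pairs of genes called lower in DM had a median log2 ratio of 0.19 and 66.7% of them were higher in DM. Genes not called gave 0.07 and 57.2%, and genes called higher -0.10 and 42.2%.

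Among the peaks named for the condensin genes, the strongest enrichment lay at the 3′ ends of NCAPD3 and NCAPH. On the span of NCAPG2, a peak under another name was stronger than that of NCAPH in both lists. One on the span of NCAPG was stronger than it in DM only. Both are described below. The NCAPD3 peak was at 12 over 570 bases in GM and at 16 over 629 bases in DM, and starts at the annotated 3′ end in both lists. The NCAPH peak was at 5.44 over 330 bases in GM and 6.92 over 450 bases in DM. The 3′UTR peaks of NCAPD2 (2.18 in GM, 1.93 in DM) and NCAPG (2.95 and 2.41) were lower in DM and covered fewer bases there, 61 against 210 and 120 against 210.

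Exon peaks of SMC2 (2.26 in GM, 2.79 in DM), SMC4 (1.35 and 1.73) and TOP2A (2.34 and 2.53) were weak in both lists. The TOP2A peaks covered 926 bases each and shared 896 of them. The SMC4 peak grew from 60 to 389 bases, and SMC2 had a further DM peak of 450 bases at 1.88. NCAPG2 had a 5′UTR peak at its annotated start, at 2.06 in GM and 2.98 in DM. In 9 of the 12 pairs the false discovery rate was less extreme in DM. Over pairs of all genes called lower the median log10 false discovery rate was -28.6 in GM and -12.1 in DM, over genes not called -25.9 and -26.2, and over genes called higher -14.7 and -32.3.

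**Figure D5:**
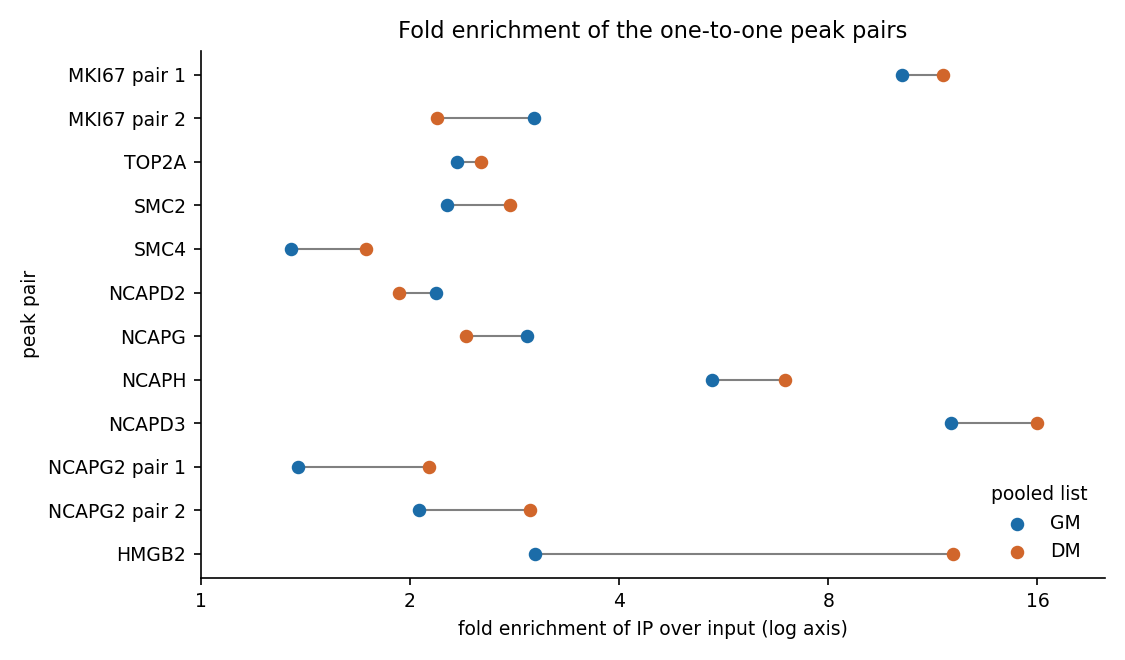
Fold enrichment (log axis) of the 12 peak pairs in the 10 genes, GM and DM points joined by a line. MKI67 and NCAPG2 have 2 pairs each, 9 of 12 DM points lie to the right of their GM point, and HMGB2 has the longest line, from 3.03 to 12.1.

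Further peaks lie on the spans of these genes under other names and were not counted above. On the span of NCAPG, a peak named for FAM184B, a gene of the opposite strand, begins at the first base of NCAPG in both lists. It covers 509 bases at a fold enrichment of 4.51 in GM and 569 bases at 11.7 in DM, and 378 of those bases lie in the listed span of FAM184B. FAM184B was at 0.220 FPKM in GM and 0.131 in DM. On the span of NCAPG2, a peak named for the RNA gene RF00001 begins at the annotated 3′ end of NCAPG2 and has none of its bases inside RF00001. It covers 449 bases at 5.69 in GM and 509 bases at 9.20 in DM, above each peak named for NCAPG2. The lists give the strand of the named gene and not of the peak, so which gene these peaks belong to was not settled.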

How the data were processed

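Input and m6A IP libraries of 3 GM and 3 DM cultures were used. The authors aligned reads to ARS-UCD1.2 with HISAT2 after trimming with Trimmomatic, and the submitters' processing notes also name cutadapt, fastp, HOMER, ChIPseeker and StringTie. Versions are not given in the sources used here, nor whether StringTie counted by strand. Libraries were made with dUTP strand marking. The deposited gene table holds FPKM made by the authors with StringTie for genes of the 29 autosomes, without read counts, so the precision of a value is the spread of 3 libraries. X-linked genes such as SMC1A were not analysed here. Peaks were called by the authors with exomePeak, once for each group with its libraries pooled. Their fold enrichment is a deposited ratio of IP to input, and the deposited p-value is unadjusted. The deposited score column repeats that p-value. The deposited log10 columns hold log10 of the p-value and of the false discovery rate, as the authors' caller wrote them. The DM list repeats 2 entries.

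Expression was fitted in R 4.3.3 with limma 3.58.1 (variance trend) on log2(FPKM + 1) for genes averaging 0.5 FPKM or more, with Benjamini-Hochberg adjustment over all of them. The fit replaces a count test, since the unit is FPKM. It was tested on simulated data. Peak lists were read and paired in Python 3.11.15 using pandas 2.3.3 and numpy 2.4.6, and figures were drawn with matplotlib 3.10.9. A pair was 2 peaks whose exon blocks shared at least 1 base on the same strand and overlapped no further peak.

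Named were the 10 genes, called genes of the lists (the 3 largest rises and falls where over 6 were called) and the 5 genes nearest in profile to MKI67 and to NCAPD3. NCAPH2, TOP2B, SMC3, RAD21, HASPIN, STAG1, the fibroblast, adipocyte, myoblast and myotube markers, NFYB, FAM184B, RF00001 and ENSBTAG00000046088 were named after their values were seen. The 10 genes and the lists were chosen with earlier results of these data known. Promoter, protein and peak sequences were not analysed here. Alternatives covered the pseudocount, the FPKM filter, the scaling (size factors or TPM), the variance trend, a replicate block, call limits, leaving out each library, and the limits, overlap and centring of peaks.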

Additional observations from a re-analysis of the deposited data

How the results depend on the processing

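The 10 genes were lower in DM under all 10 settings of scaling, pseudocount and left-out libraries, 100 of 100 values. Nothing is read from that count, because the same contrast in these libraries chose the genes. The median log2 difference of the 10 genes was -1.29 and moved to -1.60 with a pseudocount of 0.1. The count of called genes was 1461 and fell to 507 with a fold over 2, by construction, and lay between 1480 and 1521 with 1 library left out. With a pseudocount of 0.1 it was 2014. The share called higher was 41.3% (603 higher, 858 lower), against 48.7% with size factors (681 and 718) and 54.5% with TPM (1060 and 884), where the median of all tested genes was 0.00 and 0.06 in place of -0.05. Called genes of the structure lists, 31 in all, numbered 33 with a pseudocount of 0.1 and 21 with a fold over 2. They numbered 27 with size factors, 30 with TPM (29 lower, 1 higher) and 29 to 31 with 1 library left out. With a replicate block 1473 genes and 31 structure genes were called, but GM and DM libraries of the same number shared no deviations (r = -0.08, -0.12 and -0.21 across genes), so the numbers give no pairing. Pairs of peaks past 1.5-fold numbered 2, and 1, that of HMGB2, with a false discovery rate under 0.05 and fold enrichment of at least 2, with a false discovery rate under 0.001, with 50% of both peaks shared, and with ratios centred on the median of all pairs. Peaks have no replicate error, and the depth behind FPKM under 1 is not given by the files.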
